A study of Mus musculus with 24 samples.

Results

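The genes described here encode the proteins that fill, dock, prime, fuse and retrieve synaptic vesicles. They were a fixed list of 37 gene symbols, and the estimated counts of their 225 GENCODE transcripts were summed per gene. They are 37 of the 55177 genes in the tables, and all 37 passed the low-count filter in each of the fits used below. By role the list holds 9 genes of the vesicle membrane and the synapsins, 2 vesicular glutamate transporters and 6 genes of the synaptotagmin and Doc2 group. It also holds 9 SNARE proteins and their regulators, 6 active zone and priming genes, 2 genes of the Rab3 group and 3 endocytosis genes.

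RNA was sequenced from 24 cultures of primary cortical neurons taken from mouse embryos at day 16.5 (E16.5). All cultures were silenced overnight with 1 µM tetrodotoxin, a sodium channel blocker, and 100 µM D-AP5, an NMDA receptor blocker. They were then either left at rest or depolarized with 50 mM KCl for 30 min. At 7 days in vitro (DIV7) the neurons were naive wild type and were given 0.1% DMSO, with 2 cultures at rest and 2 under KCl. At DIV18 the controls carried a non-targeting guide RNA (NT, 2 at rest and 2 under KCl). The other DIV18 cultures were knocked out for Smarcc2, a subunit of BAF chromatin remodelling complexes. These carried an empty vector (vector, 3 at rest and 3 under KCl), wild-type Smarcc2 (WT, 2 and 3), Smarcc2 with the S586E substitution (3, at rest) or Smarcc2 with the S586A substitution (2, under KCl). The cortex of each embryo was a replicate per the labels. Poly(A) selection was used for the DIV7 libraries and ribosomal RNA depletion for the DIV18 libraries, so that age, library kind and the presence of a guide construct cannot be told apart between them.

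Synaptic vesicles are loaded with transmitter and tethered by synapsins, then docked at the active zone by Rab3, RIM, Bassoon and Piccolo. Munc13 proteins prime them for fusion. The SNARE proteins synaptobrevin, syntaxin and SNAP-25 zip together, complexins hold the assembled complex ready, and calcium bound to synaptotagmin triggers release. NSF and its SNAP adaptors then take the SNARE complex apart, and dynamin, amphiphysin and synaptojanin help to recover the membrane.

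Each DIV7 library held between 24536056 and 30135576 estimated counts, and each DIV18 library between 14510199 and 24024959. Levels are given as CPM, counts scaled to a common library size after TMM normalisation, for comparisons of one gene between libraries, and as TPM, which divides by transcript length, for comparisons between genes. Sums over genes are given in TPM, so they also depend on what else a library holds. Protein-coding TPM lay between 241596 and 341897 over the DIV18 libraries. The targeted gene Smarcc2 lay between 237 and 283 CPM in NT, between 47.1 and 64.1 CPM with vector, and between 737 and 1340 CPM in the cultures with any added Smarcc2. Fos was higher in every KCl library than in any resting library of the same age. Fos, an early-response gene used to check the stimulus, went from 3.65 and 4.47 CPM to 598 and 618 CPM at DIV7, while the depolarized NT replicates lay apart at 113 and 38.5 CPM. Npas4, a second such gene, stood at 178 and 183 CPM under KCl at DIV7 and at 53.3 and 13.1 CPM in those NT replicates. The depolarized WT replicates were spread more widely, with Fos at 197, 106 and 32.7 CPM and Npas4 at 108, 46.8 and 16.8 CPM. Neuron markers were well above 0 in every group. The summed markers of microglia (2.05 to 5.36 TPM) and of fibroblasts and vessels (1.94 to 5.83 TPM) were low, with Tmem119, C1qa and Cldn5 each at 0 in some groups.

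At rest the vesicle protein gene Syp was the highest member per length at both ages, with 820 TPM at DIV7 (814 to 826, n = 2) and 698 TPM in NT at DIV18 (619 to 777, n = 2). Next at DIV7 came Vamp2 (559 TPM), Rab3a (485 TPM), Snap25 (408 TPM) and Stx1a (273 TPM). In NT at DIV18 the order after Syp was Slc17a7 (545 TPM), Vamp2 (510 TPM), Snap25 (465 TPM) and Dnm1 (263 TPM). In NT the ranges of Slc17a7 (537 to 552 TPM) and Vamp2 (482 to 538 TPM) overlapped, while those of Syp and Slc17a7 and of Snap25 and Dnm1 did not. Syt2 had the lowest mean at both ages, with 1.48 and 2.03 TPM, and in NT its range (1.37 to 2.7 TPM) overlapped that of Sv2c (2.17 to 2.33 TPM). At DIV18 the sum over all 37 members lay between 3514 and 5059 TPM over the 20 libraries. In bulk RNA such as this, fewer cells of a type and less RNA per cell cannot be told apart.

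Snap25 encodes the SNARE protein that contributes a pair of helices to the fusion complex. Its transcripts use either of a pair of alternative exons, and the form with exon 5b is known to replace the form with exon 5a as the brain matures. Both exons lie on the plus strand of chromosome 2 of build GRCm38, 5a at chr2:136769743-136769860 and 5b at chr2:136770057-136770174. Each is 118 bases long. They are printed because they are the stretch that separates the forms quantified next. Capitals mark the 31 bases that differ, and 9 codons give another amino acid.
Snap25-202, exon 5a: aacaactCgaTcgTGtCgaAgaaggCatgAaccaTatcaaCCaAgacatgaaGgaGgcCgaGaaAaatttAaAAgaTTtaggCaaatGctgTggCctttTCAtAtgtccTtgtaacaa
Snap25-201, exon 5b: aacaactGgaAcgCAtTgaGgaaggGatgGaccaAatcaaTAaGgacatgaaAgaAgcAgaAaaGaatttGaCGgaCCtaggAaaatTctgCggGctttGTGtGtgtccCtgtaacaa

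Among the estimated counts of Snap25, the exon 5b transcript Snap25-201 made up 58.9% and 57.5% in the resting DIV7 libraries and 73.3% and 72.7% in the resting NT libraries at DIV18. The exon 5a transcript Snap25-202 held 40.4% and 42.0% at DIV7 and 26.2% and 26.9% in NT. None of the 4 DIV7 libraries (57.5% to 61.4%) reached the range of the 20 DIV18 libraries (64.6% to 77.0%) for the exon 5b form. Within DIV18 the group means ran from 66.9% ± 2.51 (SD, n = 3) with vector under KCl to 74.6% ± 3.31 (SD, n = 2) in NT under KCl, and the libraries of these groups did not overlap. These shares were not tested. The forms also differ at their 3′ end, where the last annotated exon holds 277 bases in Snap25-202 and 1354 bases in Snap25-201, and the part of this difference and of the library kind in the estimated shares was not tested.

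Depolarization at DIV7 was followed by small rises in a few members. Calls here and below are those of edgeR's quasi-likelihood test with a Benjamini-Hochberg adjusted p, over all genes tested, under 0.05. Of 37 members, 5 were called, all higher, which is 13.5% against 17.0% of all 19822 genes called in either direction and 7.34% called higher. The share of members called in either direction was thus near the background. The share called higher lay above that of all genes and rests on 5 members. The median log2 fold change was 0.07 over the members and -0.00 over all genes tested, and 30 of 37 members lay above 0.

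Syt4, a synaptotagmin carried on dense-core and other vesicles whose gene is itself induced by activity, had 547 and 541 CPM at rest and 687 and 677 CPM under KCl. The KCl libraries were both higher, with a log2 fold change of 0.33 (SE 0.0350, adjusted p = 0.00186, edgeR). Rims1, which encodes the RIM1 scaffold at chr1:22286251-22805994, on GRCm38, rose from 152 and 158 to 192 and 194 CPM (log2 0.32, SE 0.0449, adjusted p = 0.00497). Pclo, which encodes the active zone scaffold Piccolo at chr5:14514918-14863459, rose from 310 and 323 to 380 and 393 CPM (log2 0.29, SE 0.0422, adjusted p = 0.00574). For these 3 genes the groups did not overlap, and the call was made in each of the 9 alternatives computed for this comparison. Stxbp5, which encodes the SNARE-binding protein tomosyn, rose from 81.2 and 85.7 to 97.9 and 103 CPM (log2 0.27, SE 0.0545, adjusted p = 0.0179). Its call was lost without the resting replicate 1 (adjusted p = 0.108) or the KCl replicate 2 (adjusted p = 0.0703). Sv2c, which encodes one of the SV2 glycoproteins of the vesicle membrane, rose from 52.4 and 54.1 to 64.9 and 60.4 CPM (log2 0.24, SE 0.0612, adjusted p = 0.0417). It lost its call in DESeq2 (adjusted p = 0.124) and without the resting replicate 1 (0.187), the resting replicate 2 (0.112) or the KCl replicate 1 (0.206).

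**Figure D1:**
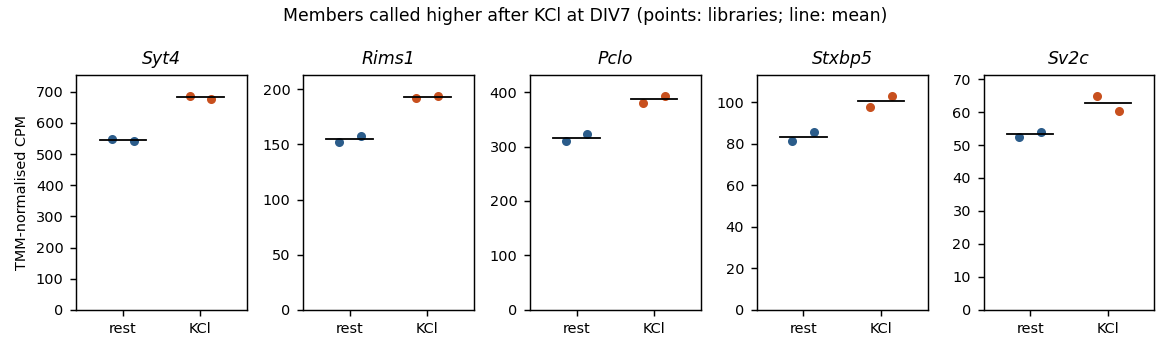
TMM-normalised CPM of the 5 members called higher after KCl at DIV7, one point per library (2 at rest in blue, 2 under KCl in orange) with the group mean as a line. The KCl libraries lie above the resting ones in each panel, from 60.4 against 54.1 CPM at the nearest for Sv2c to 677 against 547 CPM for Syt4.

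By role, 2 of 6 active zone and priming genes were called, with 1 of 6 synaptotagmin and Doc2 genes, 1 of 9 SNARE genes and 1 of 9 vesicle membrane genes. None of the glutamate transporters, the Rab3 group or the endocytosis genes was called. The largest fold changes without a call were those of the low-count genes Syt2 (log2 0.41, adjusted p = 0.280) and Vamp1 (log2 -0.40, adjusted p = 0.0639), followed by Unc13b (0.23, adjusted p = 0.331) and Syn2 (-0.20, adjusted p = 0.0581). Syp missed the threshold narrowly (log2 0.13, adjusted p = 0.0503). The 5 called genes spanned 9.60 to 520 kb with a median of 178 kb, and the 32 others 3.90 to 513 kb with a median of 48.2 kb. Of all genes 17.0% were called in either direction here and 7.34% higher. Among the 88 other genes of the release machinery, 85 were tested, 4 were called higher and 1 lower. Among the higher ones were Ppfia2 (log2 0.37), which encodes a liprin-alpha, the endocytic adaptor gene Picalm (0.27) and Rab3c (0.20). The lower one was the synaptophysin-like gene Sypl (log2 -0.50). Summed astrocyte markers lay between 260 and 290 TPM at rest and between 227 and 237 TPM under KCl, with Gfap and Slc1a3 called lower, and their part in these results was not tested.

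Transcripts annotated as protein coding held 97.6% to 98.2% of the members' estimated counts at DIV7 and 97.4% to 98.5% at DIV18. By single member, 34 of 37 had a median share of at least 90% at each age. The lowest medians were those of Vamp1, with 55.5% to 68.5% at DIV7 and 60.7% to 88.7% at DIV18. Pclo held 77.2% to 92.7% at DIV18. Annotated retained-intron transcripts held 0.996% and 1.1% at rest and 0.620% and 0.731% under KCl at DIV7. The most abundant retained-intron transcript of Pclo, Pclo-203, made up 5.22% and 8.15% of the Pclo estimate at rest and 1.74% and 2.93% under KCl, with no overlap between the groups. It was singled out after its values were seen and was not tested. In DIV18 libraries, where RNA was not selected for poly(A), the same transcript ranged from 7.26% to 22.8%.

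Promoter windows from RefSeq on GRCm38.p6, from 250 bases before to 50 after the annotated start, were found for 29 of the 37 members. They were searched on both strands for the cAMP response element TGACGTCA, bound by CREB, and for the AP-1 letters TGANTCA, bound by Fos and Jun proteins. The first was found in 1 member (3.45%, against 2.03% of the 27025 genes with a window) and the second in 2 members, Rph3a and Syt2 (6.90% against 8.97%). The only full cAMP response element was that of Syn1, a synapsin gene, 159 bases before the RefSeq start, in the stretch chrX:20921054-20921093 on the minus strand. It is shown with the element in capitals as the one such match in the list.
Syn1 promoter: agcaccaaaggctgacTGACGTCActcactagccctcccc
Syn1 had 381 and 362 CPM at rest and 407 and 387 CPM under KCl at DIV7, and was not called (log2 0.10, SE 0.0456, adjusted p = 0.196). The windows of Rims1, Pclo, Stxbp5 and Sv2c held neither set of letters, and Syt4 had no window in the table. The GC box letters GGGGCGGGG were found in 13 of 29 members (44.8%) and in 12.9% of genes, and the windows of Rims1, Pclo and Stxbp5 were among the 13.

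At DIV18 no member was called after KCl in any of the 3 constructs tested in both states. In NT 0 of 37 members were called with edgeR (0.00955% of all genes), 2 at an unadjusted p under 0.05 (906 of all 20940 genes) and 0 with DESeq2. With vector 0 were called (0.0716% of all genes), 11 at an unadjusted p under 0.05 (2167 of all 20940 genes) and 0 with DESeq2. With WT 0 were called (0.0430% of all genes), 0 at an unadjusted p under 0.05 (1040 of all 20940 genes) and 0 with DESeq2. The median log2 fold change of the members was 0.06 in NT, -0.11 with vector and -0.04 with WT. Rph3a, which encodes the Rab3 effector rabphilin, had the smallest p in NT and with vector. In NT it had 197 and 128 CPM at rest and 205 and 267 CPM under KCl, a log2 fold change of 0.54 (SE 0.189, adjusted p = 1.00). With vector it had 344, 281 and 300 CPM at rest and 210, 225 and 184 CPM under KCl, a log2 fold change of -0.58 (SE 0.154, adjusted p = 0.262). The difference between these responses was -1.11 (SE 0.244, adjusted p = 0.417) and was not called. In the test of the vector response against the NT response 0 members were called with edgeR (0% of all genes) and 1 with DESeq2. At an unadjusted p under 0.05 there were 8 members and 1845 of all 20940 genes.

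The KCl response was also compared between ages. Syt4 was the only member called, with a response lower in NT at DIV18 than at DIV7 by 0.41 on the log2 scale (SE 0.0863, adjusted p = 0.0461, edgeR), against 2.34% of all genes called. Its 200 and 213 CPM at rest in NT, in the scaling of that fit, compared with 192 and 197 CPM under KCl. At DIV7 the values in that scaling were 502 and 496 CPM at rest and 631 and 623 CPM under KCl. The call was lost in 9 of 13 alternatives, where the adjusted p ran up to 0.178. Fosb, Fos, Egr1 and Junb of the 6 early-response genes used as a stimulus check were called lower in the same test.

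Between resting cultures at DIV7 and resting NT cultures at DIV18, 35 of 37 members were called (94.6%, against 60.6% of all 21072 genes), 25 higher at DIV18 and 10 lower. Of all genes 30.0% were called higher. The median log2 fold change was 0.87 over the members and -0.03 over all genes tested, with estimates from counts after TMM scaling. On the TPM scale the picture shifts as a whole. The median of the 13638 genes above 1 TPM in both groups moved by -1.29 on the log2 scale and that of the members by -0.28, and 12 members in place of 26 lay above 0. The 14 members whose sign differed included Syp, Vamp2, Syn1 and Nsf. Relative to the median of all genes, 26 members lay above 0 on the TPM scale too, and none differed in sign from the counts. The 7SL genes Rn7s1 and Rn7s2, which are not polyadenylated, held 37.4% to 47.9% of the TPM total at DIV18 and 0.0178% to 0.0222% at DIV7. Directions in the next paragraphs are therefore those relative to other genes.

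The largest rise was that of Slc17a7, which encodes the vesicular glutamate transporter VGLUT1. It had 149 and 114 CPM at DIV7 and 1781 and 1825 CPM in NT, a log2 fold change of 3.77 (SE 0.118, adjusted p = 2.31e-08, edgeR). Vamp1, a synaptobrevin gene, rose from 11.2 and 10.7 to 78.3 and 67.7 CPM (log2 2.74, SE 0.117, adjusted p = 1.17e-07). In each of these genes the ages were far apart. Syt2, a fast calcium sensor, rose from 1.38 and 1.22 to 9.88 and 6.74 CPM (log2 2.67, SE 0.253, adjusted p = 1.58e-05). The synapsin gene Syn2 rose from 175 and 161 to 600 and 583 CPM (log2 1.82, SE 0.0727, adjusted p = 8.27e-08). The other 21 members called higher had log2 fold changes from 0.26 for Rab3a to 1.68 for Snap25.

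The largest fall was that of Unc13b, which encodes the priming factor Munc13-2, from 84.6 and 64.4 to 22.7 and 27.5 CPM (log2 -1.57, SE 0.159, adjusted p = 2.43e-05, edgeR). Slc17a6, which encodes the transporter VGLUT2, fell from 54.9 and 53.7 to 23.0 and 16.5 CPM (log2 -1.46, SE 0.136, adjusted p = 1.45e-05). The change in the transporter pair was thus in opposite directions. Syt4 fell from 502 and 496 to 200 and 213 CPM (log2 -1.28, SE 0.0619, adjusted p = 2.28e-07). Sv2c fell from 48.1 and 49.6 to 25.8 and 23.9 CPM (log2 -0.97, SE 0.235, adjusted p = 0.00567). No library of one age reached the range of the other in these genes either. The other 6 members called lower were Stx1a (-0.96), Cplx2 (-0.74), Syn3 (-0.55), Syngr3 (-0.50), Unc13a (-0.50) and Amph (-0.37). Rims1 (log2 0.07, adjusted p = 0.410) and Doc2b (-0.43, adjusted p = 0.0570) were not called. Rab3a lost its call with the replicate block (adjusted p = 0.0649), without the DIV7 replicate 1 (0.0548) or replicate 2 (0.240), and without the NT replicate 1 (0.302).

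**Figure D2:**
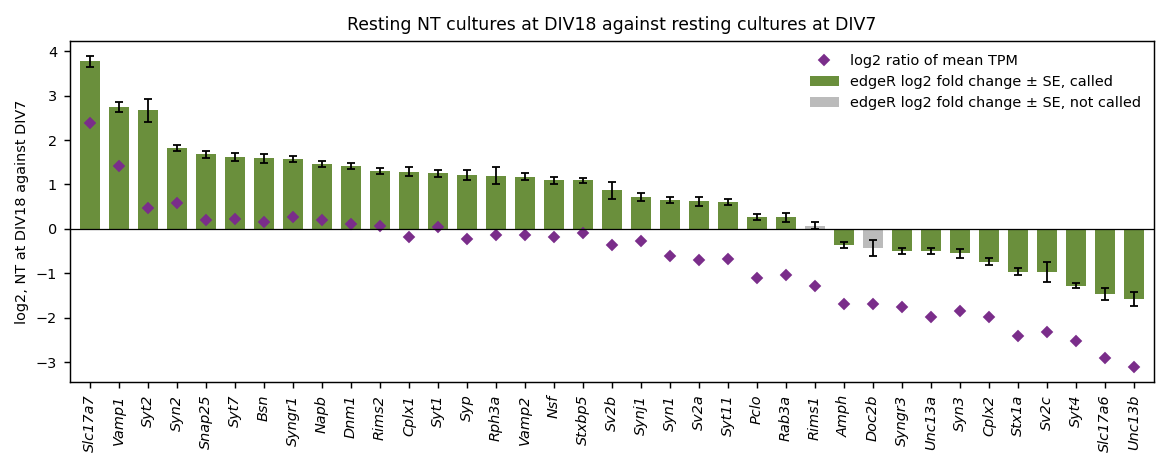
Log2 fold change of each of the 37 members between resting NT cultures at DIV18 and resting cultures at DIV7 (bars, ± SE, from edgeR on counts), with the log2 ratio of mean TPM as diamonds. The bars run from 3.77 for Slc17a7 to -1.57 for Unc13b, and the diamonds lie below them throughout, around a shift of -1.29 for all genes.

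The SNARE genes had 7 members higher and 2 lower, Snap25 (1.68), Napb (1.46, an NSF adaptor), Cplx1 (1.29, a complexin), Vamp2 (1.17), Nsf (1.10) and Stxbp5 (1.09) among the higher ones. The vesicle membrane genes had 6 higher, among them Syngr1 (1.58, a synaptogyrin) and Syp (1.21), and 3 lower. Of the synaptotagmin and Doc2 genes Syt7 (1.62), Syt1 (1.25) and Syt11 (0.61) rose with Syt2. In the active zone Bsn (1.59, Bassoon), Rims2 (1.31) and Pclo (0.27) rose while both Munc13 genes fell. Dnm1 (1.41, dynamin 1) and Synj1 (0.72, synaptojanin 1) rose and Amph fell. Sv2b (0.87), Sv2a (0.62), Syn1 (0.65) and Rph3a (1.20) complete the members called higher. Among the 86 other release genes tested, 42 were called higher and 23 lower, led by Syt10 (3.22), Stxbp5l (2.83) and Syt12 (2.77) above and by Slc18a2 (-2.11), Rab3b (-1.67) and Rab3d (-1.61) below. Of the 15 vesicular proton pump genes 10 were called, all higher (66.7%). Of all genes 60.6% were called in either direction and 30.0% higher.

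Other cell markers moved with this comparison. Of 8 astrocyte markers 5 were called higher and 1 lower at DIV18, and of 7 oligodendrocyte lineage markers tested 5 were called higher, among them Sox10 and Pdgfra. The background was 60.6% of all genes called in either direction and 30.0% called higher. The neuron markers Rbfox3, Nefl and Nefm were called higher and Tubb3, Stmn2, Elavl4 and Map2 lower. The excitatory neuron markers Neurod6, Neurod1 and Tbr1 were called lower, and of the inhibitory markers Slc32a1 was called higher and Dlx1 and Lhx6 lower. Their part in the members' values was not tested.

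Pairs of genes with like function shifted their balance per length. Slc17a7 made up 73.2% to 77.2% of the summed TPM of Slc17a7 and Slc17a6 in the 4 DIV7 libraries and 98.5% to 99.4% in the 20 DIV18 libraries. Cplx1 made up 56.4% to 56.9% of the Cplx1 and Cplx2 pair at DIV7 and 75.5% to 84.2% at DIV18. Vamp2 stayed above Vamp1 throughout, at 98.5% to 99.1% of the pair at DIV7 and 94.4% to 96.3% at DIV18. For Syt1 against Syt2 the ranges overlapped, with 98.8% to 99.6% at DIV7 and 98.0% to 99.7% at DIV18. A share within a library does not depend on how the library total is scaled. Transcript forms of Sv2b and Synj1 shifted likewise: Sv2b-201 held 31.1% to 36.9% of the Sv2b estimate at DIV7 and 51.3% to 73.3% at DIV18, and Synj1-203 held 40.5% to 49.2% of the Synj1 estimate at DIV7 and 5.85% to 15.8% at DIV18. These forms were picked after their values were seen. Library kind also differs between the ages, and its part in the shares of these pairs and forms was not tested.

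**Figure D3:**
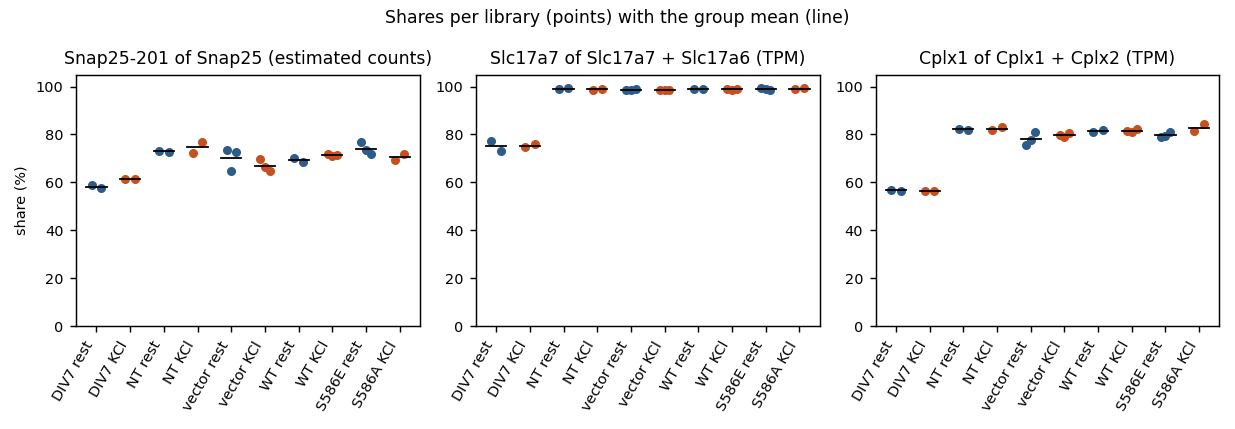
Share in percent of the exon 5b transcript in Snap25 (estimated counts), of Slc17a7 in the glutamate transporter pair and of Cplx1 in the complexin pair (TPM), one point per library for the 10 groups with the group mean as a line (rest blue, KCl orange). The DIV7 groups lie below all DIV18 groups, at 57.5% to 61.4% against 64.6% to 77.0% for Snap25-201.

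At rest 4 of 37 members were called between vector and NT (10.8%, against 5.90% of all 20940 genes), 2 higher and 2 lower with vector. The median log2 fold change was -0.01 over the members and 0.02 over all genes. Rph3a (chr5:120940499-121010092) had 197 and 128 CPM in NT and 344, 281 and 300 CPM with vector, a log2 fold change of 0.92 (SE 0.176, adjusted p = 0.00541, edgeR). In Rph3a the vector libraries all lay above NT. Slc17a6 (chr7:51622006-51671119) had 21.4 and 15.5 CPM in NT and 38.5, 33.1 and 27.3 CPM with vector (log2 0.84, SE 0.146, adjusted p = 0.00292). Bsn (chr9:108096022-108190384) had 969 and 1204 CPM in NT and 760, 777 and 551 CPM with vector (log2 -0.64, SE 0.151, adjusted p = 0.0175). Syngr1 (chr15:80091334-80119501) had 760 and 694 CPM in NT and 524, 564 and 533 CPM with vector (log2 -0.43, SE 0.0714, adjusted p = 0.00221). In these 4 genes the groups did not overlap.

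The calls at rest leaned on the NT replicate 2. Without it Rph3a (adjusted p = 0.194), Slc17a6 (0.122) and Bsn (0.343) lost theirs and 1 member, Syngr1, was called. In a fit of the compared groups alone Rph3a was the 1 member called, and Bsn was also lost without the vector replicate 3 (adjusted p = 0.0535). Of the 86 other release genes tested 4 were called, where 5.90% of all genes were. All 4 were higher: Syt10 (log2 1.15), Cadps2 (1.03), Rab3b (1.03) and Syt3. Summed astrocyte markers were 337 to 345 TPM in NT and 114 to 247 TPM with vector, with Aldoc and Slc1a2 called lower. The oligodendrocyte lineage sum was 49.5 to 53.6 TPM in NT and 29.3 to 34.7 TPM with vector, where Sox10 was at 0 in all 3 libraries. Proliferation genes summed to 4.91 to 9.83 TPM in NT and 1.38 to 2.08 TPM with vector, with Mki67, Cdk1 and Top2a called lower. Neuron markers summed to 799 to 862 TPM in NT and 708 to 846 TPM with vector. The part of these shifts in the members' values was not tested.

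Under KCl, 6 of 37 members were called between vector and NT (16.2%, against 2.67% of all genes), 5 of them lower, where 1.95% of all genes were called lower. The median log2 fold change was -0.21 over the members and 0.02 over all genes, and 31 of 37 members lay below 0. Against the same NT libraries under KCl, 32 of 37 members lay below 0 with WT and 28 with S586A. Cplx1 (chr5:108518554-108550024), whose complexin clamps and then promotes SNARE-driven fusion, had 542 and 605 CPM in NT and 371, 357 and 310 CPM with vector (log2 -0.73, SE 0.140, adjusted p = 0.0113, edgeR). Synj1, the phosphatase gene of clathrin uncoating, had 408 and 463 CPM in NT and 309, 320 and 314 CPM with vector (log2 -0.47, SE 0.0986, adjusted p = 0.0173). Both genes were lower in every vector library than in either NT library. Syngr1 had 738 and 757 CPM in NT and 534, 579 and 523 CPM with vector (log2 -0.45, SE 0.0714, adjusted p = 0.00285), much as at rest. Syt7, which encodes a slow calcium sensor, had 579 and 654 CPM in NT and 483, 478 and 450 CPM with vector (log2 -0.39, SE 0.0804, adjusted p = 0.0162). Snap25 had 765 and 849 CPM in NT and 668, 628 and 588 CPM with vector (log2 -0.36, SE 0.0945, adjusted p = 0.0467). Syngr1, Syt7 and Snap25 thus stood lower in all 3 vector libraries. Syt4 was the member called higher, with 179 and 182 CPM in NT and 232, 226 and 232 CPM with vector (log2 0.35, SE 0.0812, adjusted p = 0.0281). The groups did not overlap in any of the 6 genes.

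The number of calls under KCl depended on single libraries. It was 0 without the NT replicate 2, 4 without the NT replicate 1, and 3, 2 and 1 without the vector replicates 1, 2 and 3. The 4 calls that remained without the NT replicate 1 were Cplx1, Syngr1, Synj1 and Syt7, and with 2 NT libraries in all, either omission leaves 1 control. Rph3a, Slc17a6 and Bsn, called at rest, had log2 values of -0.19, 0.48 and -0.33 here, with adjusted p of 0.623, 0.0853 and 0.281. Of the 86 other release genes tested 5 were called lower, among them Syt13 (-0.50), Snap91 (-0.45) and Bin1 (-0.41), and Syt10 was called higher (0.95). Of all genes 2.67% were called in either direction and 1.95% lower. Summed inhibitory neuron markers were 75.1 to 95.6 TPM in NT and 48.3 to 63.0 TPM with vector, and astrocyte markers 266 to 369 TPM and 160 to 169 TPM, with Aqp4, S100b and Slc1a2 called lower. The neuron markers Nefl and Nefm were called lower as well, the sum being 840 to 852 TPM in NT and 706 to 748 TPM with vector. Fos stood at 113 and 38.5 CPM in these NT replicates and at 101, 111 and 51.2 CPM with vector. Whether these shifts had a part in the members' values was not tested.

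**Figure D4:**
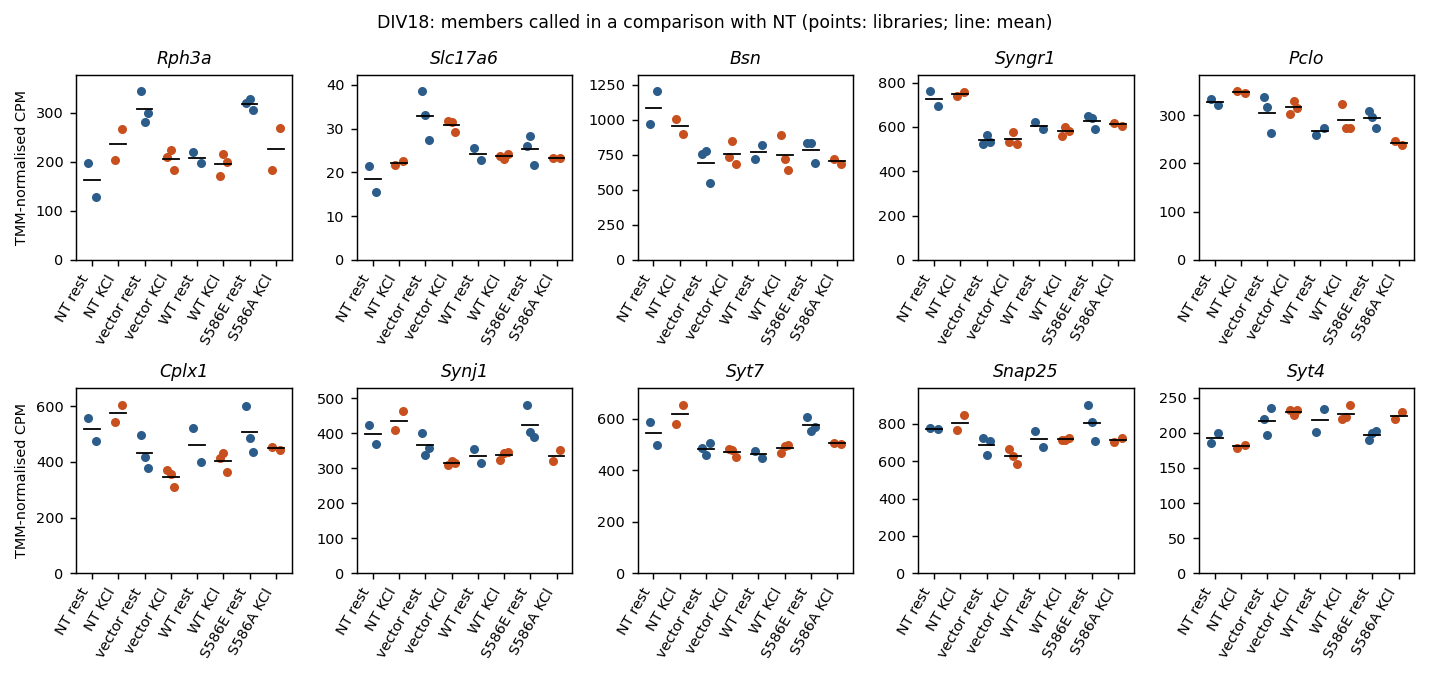
TMM-normalised CPM at DIV18 of the 10 members called in a comparison with NT, one point per library for the 8 groups (rest blue, KCl orange) with the group mean as a line. Syngr1 lies between 694 and 760 CPM in the 4 NT libraries and between 523 and 648 CPM in the 16 others, and Cplx1 under KCl lies at 310 to 371 CPM with vector against 542 and 605 CPM in NT.

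Added-back Smarcc2 was set against the same NT controls, which these comparisons share with those of the vector. At rest WT differed from NT in 0 members (0.105% of all genes called) with edgeR, 7 at an unadjusted p under 0.05 (1650 of all 20940 genes) and 1 with DESeq2. Under KCl 1 member was called between WT and NT (0.201% of all genes), Syngr1, with 561, 598 and 580 CPM in WT (log2 -0.37, SE 0.0714, adjusted p = 0.0406). That call was lost without any one of the 5 libraries (adjusted p from 0.0661 to 0.622). S586E at rest had 1 call against NT (2.78% of all genes), Rph3a, with 321, 329 and 306 CPM (log2 0.97, SE 0.177, adjusted p = 0.0111), lost without the NT replicate 2 (adjusted p = 0.375). S586A under KCl had 1 call against NT (0.430% of all genes), Pclo, with 247 and 238 CPM against 349 and 346 CPM in NT (log2 -0.52, SE 0.105, adjusted p = 0.0352). It too was lost without any one of the 4 libraries (adjusted p from 0.107 to 0.420). Syngr1 had log2 values against NT of -0.26 with WT at rest (adjusted p = 0.280), -0.22 with S586E (adjusted p = 0.110) and -0.29 with S586A (adjusted p = 0.113), none of them called, and no library of these groups reached the NT range. Under KCl the median log2 fold change of the members against NT was -0.18 with WT (0.02 over all genes) and -0.12 with S586A (-0.01 over all genes). At rest it was -0.07 with WT, with 25 members below 0, and 0.12 with S586E, with 28 above 0. Under KCl with WT, Cplx1 had 414, 430 and 364 CPM and Synj1 323, 343 and 346 CPM. These values were below both NT libraries, and neither gene was called. Syt7 (467, 493 and 499 CPM) and Snap25 (716, 712 and 722 CPM) were also below both NT libraries, and Syt4 (220, 222 and 240 CPM) above both. At rest with WT, Bsn had 719 and 820 CPM (log2 -0.50 against NT), below both NT libraries. Slc17a6 had 25.6 and 22.8 CPM (0.39), above both, and Rph3a 221 and 197 CPM (0.36). None of these was called. Cell markers stood apart from NT in these comparisons too. Under KCl neuron markers summed to 616 to 671 TPM with S586A, 704 to 773 TPM with WT and 840 to 852 TPM in NT. In CPM the order of S586A and WT was not kept. Tubb3, Rbfox3, Elavl3, Nefm, Nefl and Stmn2 had higher mean CPM with S586A than with WT, and Map2 and Elavl4 lower. Inhibitory neuron markers summed to 38.4 to 55.8 TPM with S586A, 44.0 to 69.1 TPM with WT and 75.1 to 95.6 TPM in NT, and the astrocyte marker Slc1a2 was called lower with S586A (log2 -0.65, adjusted p = 0.0484, edgeR). At rest astrocyte markers summed to 177 to 213 TPM with WT, 212 to 237 TPM with S586E and 337 to 345 TPM in NT, and oligodendrocyte lineage markers to 23.3 to 24.3, 30.9 to 35.4 and 49.5 to 53.6 TPM. The part of these shifts in the members' values was not tested.

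Direct comparisons between the knockout cultures gave no call among the members. WT against vector had 0 called at rest (0.0143% of all genes), 5 at an unadjusted p under 0.05 (2316 of all 20940 genes) and 1 with DESeq2. Under KCl it had 0 called (0.00955% of all genes), 4 at an unadjusted p under 0.05 (835 of all genes) and 0 with DESeq2. S586A against WT under KCl had 0 called (0% of all genes), 3 at an unadjusted p under 0.05 (1824 of all genes) and 0 with DESeq2. S586E against WT at rest had 0 called with edgeR (0% of all genes) and 9 at an unadjusted p under 0.05 (2696 of all genes). DESeq2 called 5 there, all higher, and 3.06% of the genes it gave an adjusted p. These 5 were Syt2, Sv2b, Syt7, Rph3a and Synj1. Syt2 had 15.3, 11.6 and 11.2 CPM with S586E and 5.88 and 4.98 CPM with WT (log2 1.22, SE 0.278, adjusted p = 0.115 in edgeR). Sv2b had 505, 379 and 384 CPM with S586E and 286 and 207 CPM with WT (log2 0.78, SE 0.187, adjusted p = 0.123). The groups did not overlap in either gene. Of the 37 members 34 lay above 0 in this comparison, with a median of 0.16 against 0.01 over all genes. No cell marker was called in this comparison, but several summed levels were apart. Neuron markers summed to 769 to 924 TPM with S586E and 571 to 685 TPM with WT, excitatory neuron markers to 125 to 146 TPM and 84.8 to 108 TPM, inhibitory neuron markers to 66.9 to 80.8 TPM and 55.1 to 56.4 TPM, and oligodendrocyte lineage markers to 30.9 to 35.4 TPM and 23.3 to 24.3 TPM. Their part in the members' values was not tested.

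**Figure D5:**
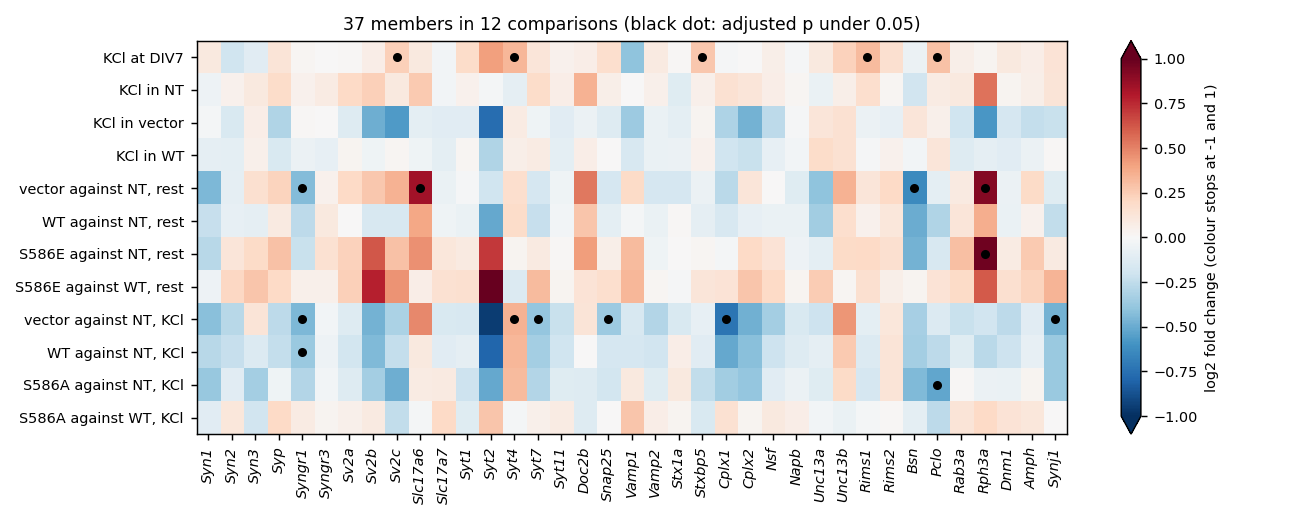
Log2 fold change of the 37 members (columns, by role) in 12 comparisons (rows), with a black dot where the adjusted p was under 0.05 and colour from blue (lower) to red (higher). The 5 dots of KCl at DIV7 and the 6 dots of vector against NT under KCl are in different genes but for Syt4, and the 3 rows of KCl at DIV18 hold no dot.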

How the data were processed

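Each deposited table lists, per its header, the length, effective length, estimated count and TPM of each transcript. FastQC, cutadapt and kallisto are named in the submitters' processing notes; versions, genome build and annotation are not given in the sources used here. The deposited estimated counts are kallisto's apportioning of reads among transcripts, so they can be fractional. The TPM values, deposited by the authors per the file headers, scale these by effective length to a fixed total per library.

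Of 142552 transcripts, 141429 (99.2%) matched GENCODE M21 (GRCm38). The other 1123 were dropped, taking no more than 0.467% of any library with them. Counts were summed per gene and rounded. The main test was the two-sided quasi-likelihood F test of edgeR 4.0.16 (R 4.3.3), with TMM scaling, filterByExpr and Benjamini-Hochberg adjustment over all genes tested. The 4 DIV7 libraries were fitted alone (19822 genes, 2 residual degrees of freedom), the 20 DIV18 libraries together in 8 groups (20940 genes, 12), and the DIV7 and NT libraries together for contrasts of age (21072 genes, 4). In all 17 comparisons were tested. The script was tested on simulated data.

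Members, lists and comparisons were chosen with earlier results of these data known. Each called member is given with its values in every library. Where more than 8 were called, the 4 largest rises and 4 largest falls are. Of other release genes at most 3 rises and 3 falls are named, and some genes of the lists are not reported here. Retained-intron and transcript forms, and uncalled genes given with values, were picked after their values were seen. Alternatives tried were a replicate block, DESeq2 1.42.0, size factors by median of ratios, keeping low-count genes, effective-length offsets, fitting the compared groups alone, and omitting each library in turn. The TPM scale for the age comparison and crossed NT numbers were added after the data were seen.

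Same-numbered libraries were checked for pairing by the correlation of their deviations from the group means. With 3 pairs, every correlation passed 0.1 for KCl in vector (0.168, 0.178 and 0.313) and for WT against vector under KCl (0.241, 0.215 and 0.353), so the numbers were taken to pair those samples. The replicate block changed no member's call in either. With 2 pairs, WT against NT also passed 0.1, with 0.181 and 0.181 at rest and 0.235 and 0.265 under KCl. There the block gave 0 and 1 called members, as did the main tests, which hold no replicate term.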

Additional observations from a re-analysis of the deposited data

Results flagged for a closer look

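The KCl response of Syt4 differed between ages in a test of the difference itself, by -0.41 on the log2 scale (SE 0.0863, adjusted p = 0.0461, edgeR), being lower in NT at DIV18 than at DIV7. Both KCl libraries were above both resting libraries at DIV7, and both were below both resting libraries in NT. The call was lost in 9 of 13 alternatives. Fos under KCl, in the scaling of that fit, stood at 550 and 569 CPM at DIV7 and at 122 and 41.6 CPM in NT. The part of this difference in the Syt4 result was not tested. Age, library kind and guide construct cannot be told apart here.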

How the results depend on the processing

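Counts below are of called members, with the share of all genes called in the same fit in parentheses. Without the low-count filter there were 10 for KCl at DIV7 (12.3%), 1 for KCl in NT (0.467%), 8 for KCl in vector (1.25%), 7 and 15 for vector against NT at rest and under KCl (4.9% and 3.49%), 1 and 8 for WT against NT at rest and under KCl (0.919% and 1.71%), 8 for S586E and 6 for S586A against NT (3.84% and 1.59%), 3 for WT against vector at rest (1.47%), 5 for S586E against WT (1.9%), 5 for the vector response against the NT response (1.09%) and 2 for the NT response against the DIV7 response (3.14%). The share without the filter is taken over 39819 to 42163 genes, the added ones being those the filter removes. DESeq2 gave 10 for vector against NT under KCl (5.33%), 1 and 5 for WT against NT at rest and under KCl (0.792% and 5.56%), 5 for S586E and 6 for S586A against NT (6.35% and 2.85%), 1 for WT against vector at rest (2.09%), 5 for S586E against WT (3.06%) and 1 for the vector response against the NT response (0.00972%). Fitting the compared groups alone gave 1 and 11 for vector against NT at rest and under KCl (1.22% and 3.86%), 0 for WT against NT under KCl (0.0265%), 2 for S586E and 0 for S586A against NT (3.38% and 0.0688%), and 2 for S586E against WT (0.232%). Length offsets gave 3 for vector against NT under KCl (1.33%), 0 for WT and for S586A against NT under KCl (0.0621% and 0.153%) and 0 for the NT response against the DIV7 response (1.23%). On the TPM scale 12 members lay above 0 between ages in place of 26. The cause of these shifts was not tested.

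The replicate block gave 17 called members for KCl at DIV7 (15 higher, 29.5% of all genes called), 6 and 8 for vector against NT at rest and under KCl (8.09% and 3.99%), 2 for S586E against NT (4.42%) and 0 for the NT response against the DIV7 response (1.32%). In these comparisons the numbers are only shared: the correlation was 0.0356 at DIV7, 0.091 and 0.181 for vector against NT at rest, 0.0603 and 0.104 under KCl, and 0.103 and 0.130 for S586E against NT. For KCl in NT it was -0.123, and the crossed pairing gave 0 called members, as did the pairing by number.

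With each library left out in turn, the count ran from 4 to 6 for KCl at DIV7, 1 to 5 and 0 to 4 for vector against NT at rest and under KCl, 0 to 0 for WT against NT under KCl, 0 to 2 for S586E and 0 to 0 for S586A against NT, 34 to 35 for NT at DIV18 against DIV7, and 0 to 1 for the NT response against the DIV7 response; a lone library left in a group was assumed to vary like the others. Over the called members, 452 values in count-based alternatives kept the call, 63 lost it and 0 reversed direction. Most of the kept values come from the age comparison with its 35 called members, where only Rab3a lost its call. Each of the 6 members called for vector against NT under KCl lost its call in at least 1 alternative. On the TPM scale 14 members differed in sign between ages. Syt2 at DIV7 rested on 1.33 to 2.04 CPM.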
